A study of Drosophila melanogaster with 6 samples.

Results

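Juvenile hormone is a lipid hormone that insects build from the mevalonate pathway in a gland called the corpus allatum. In adult female flies it promotes yolk uptake and egg maturation, and enzymes in target tissues break it down. Inside cells it binds the transcription factors Met and gce, which then switch on genes such as Kr-h1. The 9 genes described here were chosen from a fixed list of names that covers synthesis (jhamt), turnover (Jheh1, Jheh2, Jheh3 and Jhe), reception (Met and gce) and response (Kr-h1 and JhI-26), and were found by FlyBase identifier among the 17509 genes of each count file. They serve to check whether a hormone response goes with the diet. The rule uses names alone, though the list was drawn up with earlier results of these data known. All 9 had reads in every library and passed the filter on low counts.

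The data are RNA-seq read counts from whole heads of 4-day-old female Drosophila melanogaster of the wild-type strain Canton S. The vitamin A deprived group (3 libraries) was reared on a minimal food without beta-carotene, the plant pigment from which flies make the chromophore of their visual pigments, and the vitamin A replete group (3 libraries) on the same food with beta-carotene added. All flies were kept at 25 °C. The labels do not say whether heads were pooled or whether libraries came from separate cultures, so p-values reflect only how far these libraries scatter, possibly for technical reasons. Library codes in the labels differ between the diets and their meaning is not stated, so a batch that followed them and the diet cannot be told apart.

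None of the 9 juvenile hormone genes passed the test between vitamin A deprived and replete heads, which does not show that their levels were equal. In edgeR's quasi-likelihood test with Benjamini-Hochberg (BH) adjustment over 10896 genes, 0 of 9 passed at an adjusted p under 0.05, where 36 of all genes (0.330%) passed, 0.294% of all genes higher and 0.0367% lower in deprived heads. At an unadjusted p under 0.05 the count was also 0 of 9, against 5.13% of all genes, and DESeq2 and limma-voom also called 0 of the 9. The 3 deprived and 3 replete values overlapped for all 9 genes, whereas they did not overlap for 10.9% of all genes. Of the 9, 1 had a log2 fold change above 0, as did 48.0% of all genes, and 8 had one under 0.25 in size, as did 70.7%. Log2 fold changes, deprived over replete, ran from -0.31 for Jhe to 0.14 for jhamt with a median of -0.11, beside a median of -0.0089 over all genes tested. A count of 0 among 9 is near a background of 0.330%, so the interval of each gene is given below.

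The deprived libraries held 21344395 to 24165187 counts and the replete libraries 15668307 to 17935321, so a count of 3 stood for 0.125 to 0.186 CPM (counts scaled to a common library total). This floor covers counting error only. Markers of the head were abundant in both groups, with the rhodopsin gene ninaE at 11888 ± 1155 CPM in deprived heads, against 11088 ± 976 CPM in replete heads and the neuronal gene elav at 403 ± 18.4 and 368 ± 6.57 CPM (SD, n = 3 each). Replete libraries 2 and 3 stood apart. On the first principal component of log2 CPM replete library 3 was at -48.1 and replete library 2 at 32.1, with the other 4 libraries between -8.17 and 18.2. Replete library 3 had the lowest level of the clock gene tim, 87.7 CPM, against 238 to 549.8 CPM elsewhere. Replete library 2 held 151 CPM of Cyp4g1, a gene of the oenocytes, against 1.59 to 5.54 CPM in the other libraries, and 7.34 CPM of the eggshell gene Cp36, which had no count elsewhere (Cyp4g1 was chosen after its values were seen). The summed level of 11 ovarian genes was 20.2, 52.3 and 16.0 CPM in the deprived and 96.8, 66.5 and 1.48 CPM in the replete libraries, lowest in replete library 3. In whole heads, fewer cells that express a gene and less RNA per cell cannot be told apart.

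Synthesis was represented by jhamt, which encodes the methyltransferase that acts late in making the hormone in the corpus allatum. The gene (FBgn0028841) lies on chromosome 2L at 16365903 to 16367039 in assembly BDGP6.54. It had 24, 24 and 48 counts in the deprived libraries, or 1.05, 1.097 and 2.01 CPM, and 24, 10 and 28 counts in the replete libraries, or 1.49, 0.565 and 1.72 CPM. The highest value was in deprived library 3 and the lowest in replete library 2, and the groups overlapped. Means were 1.38 ± 0.539 CPM in deprived heads, against 1.26 ± 0.612 CPM in replete heads (SD, n = 3 each), a 1.104-fold difference with a 95% interval from 0.487 to 2.504, the widest fold interval among the members. Counting error alone gives a coefficient of variation of 19.5% at the mean count of jhamt, while the libraries varied by 38.9% in the deprived and 48.7% in the replete group.

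Turnover runs through epoxide hydrolases, which open the epoxide ring of the hormone, and an esterase, which removes its methyl group. The epoxide hydrolase genes Jheh1 (FBgn0010053, 18853434 to 18855087), Jheh2 (FBgn0034405, 18855767 to 18858245) and Jheh3 (FBgn0034406, 18860375 to 18862078) stand side by side on the same strand of chromosome 2R. Jheh1 was at 100.4, 112 and 74.7 CPM in the deprived libraries and at 84.7, 121 and 95.5 CPM in the replete libraries. Jheh2 was at 103, 100.1 and 87.2 CPM in the deprived libraries and at 92.6, 104 and 116 CPM in the replete libraries. Jheh3 was at 6.30, 9.51 and 7.19 CPM in the deprived and 9.68, 8.36 and 8.12 CPM in the replete libraries. In each of these 3 genes the groups overlapped, and deprived library 3 held the lowest value of both Jheh1 and Jheh2.

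Of the 3 epoxide hydrolase genes, Jheh2 had the narrowest interval. Its mean was 96.8 ± 8.48 CPM in deprived heads, against 104 ± 11.6 CPM in replete heads (SD, n = 3 each), a fold of 0.930 with a 95% interval from 0.790 to 1.09. The interval of Jheh1 ran from 0.727 to 1.25 around a fold of 0.953, and that of Jheh3 from 0.629 to 1.23 around a fold of 0.879. The ratio of Jheh1 to Jheh2 per exonic length was 1.26, 1.45 and 1.11 in the deprived and 1.19, 1.51 and 1.07 in the replete libraries, so Jheh1 was the higher of the pair in 6 of 6 libraries and the ratio overlapped between the diets (2-sided exact permutation p = 0.9, BH-adjusted p = 0.9 over 6 ratios, of which the smallest p possible is 0.1). The annotation also places an antisense RNA gene, asRNA:CR46485, across exons of all 3. It shares all 1486 exonic bases of Jheh1, 1765 of the 1926 of Jheh2 and 780 of the 1576 of Jheh3. Its identifier is not among those analysed here, so how its reads were counted is not known. The counts of these 3 genes, and the ratio of Jheh1 to Jheh2, may thus include reads that are not their own.

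Juvenile hormone esterase, encoded by Jhe (FBgn0010052, chromosome 2R, 16119793 to 16122773), had 113, 84 and 34 counts in the deprived libraries, or 4.94, 3.84 and 1.42 CPM. In the replete libraries it had 48, 78 and 86 counts, or 2.98, 4.40 and 5.29 CPM. Deprived library 3 was below all others, and its counting interval of 0.984 to 1.99 CPM did not reach the lower bounds of 2.19 CPM and above in the other libraries. Means were 3.40 ± 1.80 CPM in deprived heads, against 4.22 ± 1.17 CPM in replete heads (SD, n = 3 each), a log2 difference of -0.31 with a 95% interval from -1.25 to 0.62. Without deprived library 3 the log2 fold change was 0.056. The neighbouring esterase gene Jhedup, a tandem relative of Jhe, was at 26.8, 62.2 and 30.9 CPM in the deprived and 32.6, 22.7 and 56.1 CPM in the replete libraries, where the groups also overlapped.

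**Figure D1:**
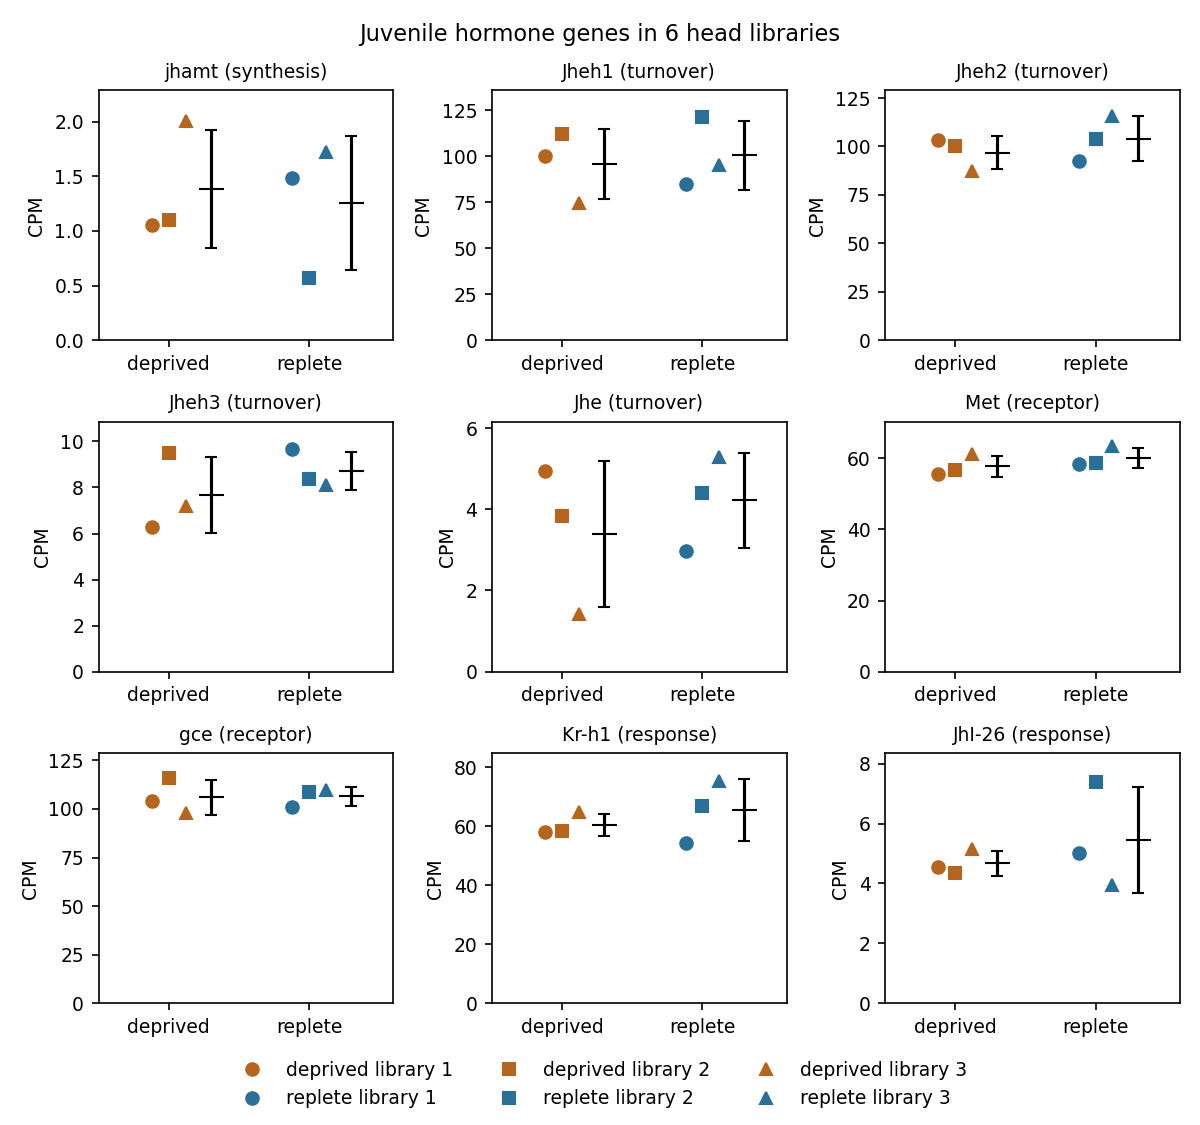
Level of each juvenile hormone gene in CPM (y axis, from 0) in the 3 vitamin A deprived and 3 vitamin A replete libraries (x axis). Coloured symbols are libraries and black bars are the mean and SD. The groups overlap in all 9 panels, and the SD is small beside the mean for Met and gce and large for jhamt and Jhe.

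The receptor genes were the most even members. Met (FBgn0002723, chromosome X, 11616124 to 11621280) encodes a basic helix-loop-helix PAS protein that binds the hormone. It was at 55.6, 56.6 and 61.2 CPM in the deprived and 58.4, 58.7 and 63.4 CPM in the replete libraries. Its paralogue gce (FBgn0261703, chromosome X, 15297766 to 15319074), whose product is a second receptor, was at 104, 116 and 98.0 CPM in the deprived and 101, 109 and 109.8 CPM in the replete libraries. The 6 values of each gene lay within 1.14-fold of each other for Met and 1.18-fold for gce.

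Means of Met were 57.8 ± 2.97 CPM in deprived heads, against 60.2 ± 2.80 CPM in replete heads (SD, n = 3 each), a fold of 0.961 with a 95% interval from 0.828 to 1.11. Means of gce were 106 ± 9.14 CPM in deprived heads, against 106 ± 4.88 CPM in replete heads (SD, n = 3 each), a fold of 0.996 with a 95% interval from 0.863 to 1.15. Both intervals were among the narrowest of the members. Per exonic length gce exceeded Met by 1.64, 1.79 and 1.40-fold in the deprived and 1.51, 1.62 and 1.52-fold in the replete libraries. This balance of the receptors overlapped between diets (2-sided exact permutation p = 0.6, BH-adjusted p = 0.9 over 6 ratios). With 0.1 as the smallest p possible, this permutation test could not have reached 0.05. Antisense genes share 2364 exonic bases with gce, and the 2 of them held 12 to 34 counts each in a library, beside 1626 to 2537 for gce. The assignment of reads in the shared bases is not given. The count of gce, and with it the ratio to Met, may therefore leave some of them out.

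Among the response genes, Kr-h1 (FBgn0266450, chromosome 2L, 6082603 to 6096498) encodes a zinc-finger factor that is a direct target of the hormone receptors. It was at 58.0, 58.5 and 64.8 CPM in the deprived and 54.5, 66.8 and 75.3 CPM in the replete libraries. The replete libraries spanned both the lowest and the highest value. Means were 60.4 ± 3.80 CPM in deprived heads, against 65.5 ± 10.5 CPM in replete heads (SD, n = 3 each), a fold of 0.923 with a 95% interval from 0.766 to 1.11. The annotation gives CG45075 on the same strand and 4168 of the 5306 exonic bases of Kr-h1 to both genes, and CG45075 was listed at 0 in all 6 libraries. How reads in the shared bases were assigned is not given, so the count of Kr-h1 may leave some of them out.

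JhI-26 (FBgn0028424, chromosome 2R, 16289320 to 16291333) takes its name from its induction by juvenile hormone in cultured fly cells. It had 104, 95 and 123 counts in the deprived libraries, or 4.55, 4.34 and 5.14 CPM, and 81, 131 and 64 counts in the replete libraries, or 5.02, 7.40 and 3.94 CPM. The highest value was in replete library 2, the library with oenocyte and eggshell transcripts, and the part of that tissue in the value was not tested. Means were 4.68 ± 0.414 CPM in deprived heads, against 5.45 ± 1.77 CPM in replete heads (SD, n = 3 each), a log2 difference of -0.22 with a 95% interval from -0.84 to 0.40. Without replete library 2 the log2 fold change was 0.062. An antisense gene, asRNA:CR43730, shares 1054 of the 1495 exonic bases of JhI-26 and held 5 to 20 counts. The assignment of reads in the shared bases is not given. The count of this weakly expressed gene may thus include reads that are not its own or leave some out.

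Levels of the members can be ranked per kilobase of exon. Jheh1 was highest at 64.4 ± 12.9 CPM per kb in deprived heads, against 67.6 ± 12.6 CPM per kb in replete heads, followed by Jheh2 at 50.3 ± 4.40 and 54.1 ± 6.01, and gce at 18.2 ± 1.57 and 18.3 ± 0.839 (SD, n = 3 each). Kr-h1 was at 11.4 ± 0.715 CPM per kb in deprived heads, against 12.3 ± 1.97 in replete heads, and Met at 11.4 ± 0.584 and 11.8 ± 0.551. Below these stood Jheh3 at 4.86 ± 1.05 CPM per kb in deprived heads, against 5.53 ± 0.531 in replete heads, and JhI-26 at 3.13 ± 0.277 and 3.65 ± 1.18. Jhe at 1.62 ± 0.857 CPM per kb in deprived heads, against 2.01 ± 0.556 in replete heads and jhamt at 1.29 ± 0.502 and 1.17 ± 0.571 closed the order. Neighbours in this order whose values overlapped in both groups were Jheh1 and Jheh2, Kr-h1 and Met, and Jhe and jhamt, while the other neighbours were apart in both groups. The order depends on the length used. An alternative chosen after seeing the data divided the whole-gene CPM only by the exonic bases that no other listed gene shares. It holds only if reads in shared bases were not counted. Kr-h1 was then at 53.1 ± 3.34 CPM per kb in deprived heads, against 57.6 ± 9.19 in replete heads, and moved to rank 2. By this length gce was at 30.8 ± 2.65 CPM per kb in deprived heads, against 30.9 ± 1.42 in replete heads (SD, n = 3 each). JhI-26 moved above Jheh3.

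Among all tested genes with an annotated length, Jheh1 and Jheh2 were at the 92.7 and 90.6 percentile of level per kb, gce, Kr-h1 and Met at the 72.2, 61.2 and 60.5 percentile, and jhamt at the 12.9 percentile. The levels of Jheh1 and Jheh2 may include reads of the antisense gene asRNA:CR46485, as the strand setting of the counting is not given. In deprived heads the highest coefficients of variation between libraries were those of Jhe, 53.0%, and jhamt, 38.9%. In replete heads they were those of jhamt, 48.7%, JhI-26, 32.4%, and Jhe, 27.7%. JhI-26, also a low member, varied by only 8.85% in deprived heads.

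The members also differed among libraries in a way that did not follow diet. Deprived library 3 had the highest jhamt and the lowest Jhe, Jheh1 and Jheh2 of all 6 libraries. Replete library 2 had the lowest jhamt and the highest Jheh1 and JhI-26. On the log2 scale, centred on the mean of 6 libraries, jhamt was 0.71 above its mean in deprived library 3 and 1.11 below it in replete library 2, and Jhe was 1.31 below its mean in deprived library 3. With 48 and 10 counts the intervals of jhamt in these 2 libraries, 1.48 to 2.66 and 0.271 to 1.04 CPM (exact Poisson, counting error only), did not overlap.

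**Figure D2:**
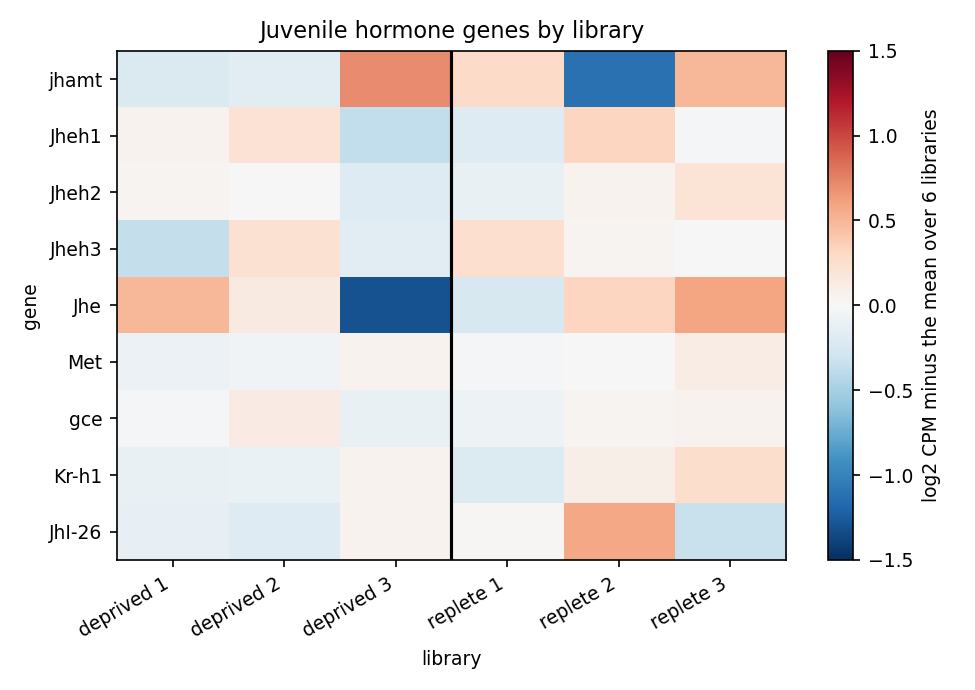
Level of each juvenile hormone gene (rows) in each library (columns, deprived left of the black line and replete right of it) as log2 CPM minus the gene's mean over 6 libraries. The strongest colours, low Jhe in deprived library 3 and low jhamt in replete library 2, are in single libraries of either diet, and Met and gce are pale throughout.

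By the Pearson correlation of log2 CPM over 6 libraries, the tested genes most like each member were Dred and APC4 for jhamt, CG5149 and CG15021 for Jheh1, caps and CG13003 for Jheh2, CG15701 and Dph5 for Jheh3, and CG5783 and comm2 for Jhe. Those for the receptors were retm and Rubicon for Met and Vha16-1 and ChT for gce, and those for the response genes were Wdr37 and CG4896 for Kr-h1 and snoRNA:Psi28S-1175b and tth for JhI-26. These 18 values of r lay between 0.977 and 0.998, but they rest on 6 libraries, and 41 to 215 of 9972 candidates reached 0.9 for a given member. The libraries differed in depth and in transcripts of other tissues, and the part of these differences in the correlations was not tested. No member was among the genes most like another member.

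The synthesis steps before jhamt were also compared. The 10 genes cover the mevalonate pathway to farnesyl diphosphate and related enzymes. Of these, 9 could be tested and 0 passed in either direction, where 0.330% of all genes did. Their median log2 fold change was -0.09. For 1 of the 9, Mvd, every deprived value was below every replete one, as in 5.02% of all genes. None of the 9 was at an unadjusted p under 0.05, and DESeq2 and limma-voom called none of those named here. Among those with the smallest p were Hmgs, an early synthase of the pathway, at 60.5 ± 4.81 CPM in deprived heads, against 54.9 ± 5.78 CPM in replete heads, Mvd at 4.24 ± 0.827 and 5.56 ± 0.213 CPM, and qm, a geranylgeranyl diphosphate synthase, at 71.7 ± 4.92 and 82.7 ± 15.0 CPM (SD, n = 3 each).

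The takeout family of secreted proteins includes to and genes named juvenile hormone binding protein (Jhbp). Of 15 family genes 12 could be tested, and 0 passed in edgeR, where 0.330% of all genes did. Log2 fold changes were below 0 in 11 of the 12 (median -0.25, beside -0.0089 over all genes tested). At an unadjusted p under 0.05, 3 were lower and none higher, where 2.41% of all genes were lower and 2.72% higher. Jhbp13 was at 109, 101 and 90.8 CPM in the deprived and 123, 169.7 and 132 CPM in the replete libraries, every deprived value below every replete one (edgeR quasi-likelihood, BH-adjusted p = 0.251). DESeq2 called it lower (BH-adjusted p = 0.045), the only one of 16 alternatives to do so, over which the adjusted p reached 1.00. The clock-controlled gene to was at 80.0, 103 and 78.0 CPM in the deprived and 88.3, 119.9 and 143 CPM in the replete libraries, and Jhbp1 at 60.0 ± 8.25 CPM in deprived heads, against 72.9 ± 9.52 CPM in replete heads. Jhbp3, the next by p, was at 139 ± 32.4 and 172 ± 16.3 CPM (SD, n = 3 each).

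Clock genes were read beside this family. The clock gene per was at 121, 126.4 and 131 CPM in the deprived and 91.2, 62.5 and 35.1 CPM in the replete libraries. Clk, which peaks opposite to per, was at 47.8, 42.3 and 44.2 CPM in the deprived and 46.0, 70.3 and 94.9 CPM in the replete libraries. Of 7 clock genes 5 had a positive and 2 a negative log2 fold change, and 0 passed in edgeR, where 0.330% of all genes did. There were 1 higher (per) and 2 lower (Clk and cry) at an unadjusted p under 0.05, beside 2.72% and 2.41% of all genes. Without replete library 1, Clk was called lower (edgeR quasi-likelihood, BH-adjusted p = 0.038). The summed level of the 7 was 1812, 1933 and 2509 CPM in the deprived and 2062, 1529 and 1169 CPM in the replete libraries. Their part in the values of to and its relatives was not tested.

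Of 8 genes that work with the receptors, all were tested and 0 passed, where 0.330% of all genes did, with a median log2 fold change of 0.02. The groups did not overlap for 2 of them, Chd64 and Fs(2)Ket, beside 10.9% of all genes. At an unadjusted p under 0.05, 1 of the 8 (Chd64) was higher and 0 lower, beside 2.72% and 2.41% of all genes. The coactivator tai, which joins Met and gce on their targets, was at 242 ± 5.16 CPM in deprived heads, against 244 ± 28.5 CPM in replete heads (SD, n = 3 each). Its log2 fold change of -0.01 had a 95% interval from -0.22 to 0.20, and the sign turned positive when libraries were scaled by their total alone. The chaperone Hsp83 and the nuclear pore gene Nup358, which act in moving Met into the nucleus, were at 393 ± 159 and 198 ± 21.9 CPM in deprived heads, against 428 ± 27.6 and 186 ± 25.0 CPM in replete heads, and the importin gene Fs(2)Ket was at 264 ± 8.12 in deprived and 247 ± 4.93 CPM in replete heads (SD, n = 3 each). The Hsp83 value of deprived library 1, 576 CPM, was above the 289 to 449 CPM of the other 5. Chd64, which binds a hormone response element, was at 262 ± 17.9 CPM in deprived heads, against 214 ± 28.6 CPM in replete heads with no overlap, as in 5.86% of all genes with deprived above (edgeR quasi-likelihood, BH-adjusted p = 0.766), and its partner Fkbp39 was at 20.2 ± 3.22 and 22.9 ± 10.8 CPM (SD, n = 3 each). The nuclear receptor genes usp and ftz-f1 had log2 fold changes of -0.08 and 0.06.

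Other genes linked to induction by juvenile hormone gave an uneven result. Of 8, JhI-21 and RNaseZ (formerly JhI-1) rose and the other 6 did not pass, where 0.294% of all genes passed as higher and 0.0367% as lower. The median log2 fold change of the 8 was 0.16, beside -0.0089 over all genes tested. The amino acid transporter gene JhI-21 was at 99.4, 91.9 and 93.9 CPM in the deprived and 24.2, 19.1 and 21.7 CPM in the replete libraries (4.38-fold, edgeR quasi-likelihood BH-adjusted p = 1.95e-06). The transfer RNA processing gene RNaseZ was at 29.2, 26.4 and 30.6 CPM in the deprived and 11.9, 8.47 and 9.11 CPM in the replete libraries (2.92-fold, edgeR quasi-likelihood BH-adjusted p = 0.000905). Both kept their call in all 16 alternatives. These 2 changes were known when the list was drawn up, so the list's count is not independent evidence for its direction.

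JhI-26, the third gene of that naming series, can be set beside JhI-21 and RNaseZ. Its upper 95% bound of 1.32-fold lay below their lower bounds of 3.68-fold and 2.27-fold. The ratio of JhI-21 to JhI-26 per exonic length was 13.8, 13.4 and 11.5 in the deprived and 3.05, 1.63 and 3.48 in the replete libraries, and that of RNaseZ to JhI-26 was 3.54, 3.35 and 3.29 in the deprived and 1.31, 0.632 and 1.28 in the replete libraries. These ratios restate the rises of JhI-21 and RNaseZ, which were known when the pairs were chosen, so they are given as a description.

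Over all 8 genes of the inducible list, JhI-21 and RNaseZ included, 7 log2 fold changes were positive and 1 negative. At an unadjusted p under 0.05, 3 were higher and 0 lower, beside 2.72% and 2.41% of all genes. The groups did not overlap for 5 of the 8, beside 10.9% of all genes. These were JhI-21, RNaseZ, AOX1 and Eip74EF with deprived above, and hpRNA:CR33940 with deprived below. The aldehyde oxidase gene AOX1 was at 216, 196 and 310.4 CPM in the deprived and 139.9, 123.8 and 144 CPM in the replete libraries, 1.77-fold with no overlap, and did not pass over all genes in edgeR (quasi-likelihood BH-adjusted p = 0.133). It was called in 3 of 16 alternatives, over which the adjusted p ran from 4.32e-05 in DESeq2 to 0.533. The transporter gene mnd, a relative of JhI-21, was at 23.9, 19.5 and 20.1 CPM in the deprived and 21.1, 21.3 and 19.4 CPM in the replete libraries. The hormone-responsive transcription factor genes Eip74EF, Eip75B and br had log2 fold changes of 0.20, 0.04 and 0.12, none of which passed, and the hairpin RNA gene hpRNA:CR33940 was at 4.20, 3.79 and 4.09 CPM in the deprived and 4.90, 5.53 and 5.35 CPM in the replete libraries.

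**Figure D3:**
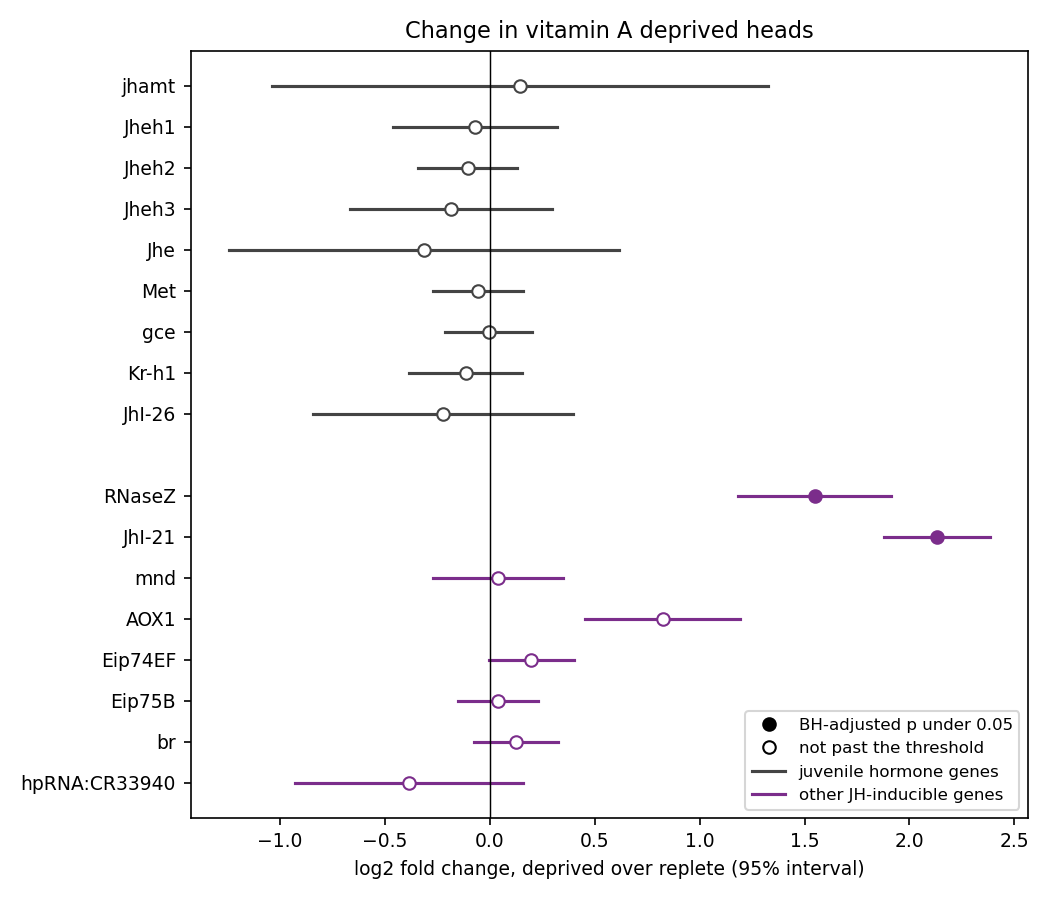
Log2 fold change, deprived over replete (x axis), with its 95% interval for the 9 juvenile hormone genes (grey) and 8 other genes linked to induction by the hormone (purple). Filled points passed at a BH-adjusted p under 0.05. The intervals of all 9 juvenile hormone genes include 0, and those of JhI-21 and RNaseZ lie to the right of them, apart from the upper end of the jhamt interval, which passes the lower end of RNaseZ.

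Signals that control the corpus allatum, ecdysone genes and detoxification genes were read for context. Of 15 genes for control of the gland 0 passed, where 0.330% of all genes did, with a median log2 fold change of 0.08. Nmdar1 and Ilp5 were higher at an unadjusted p under 0.05, 2 of the 15, beside 2.72% of all genes. For both, every deprived value was above every replete one, as in 5.86% of all genes. The 4 with the smallest p were Nmdar1, a glutamate receptor subunit, at 54.4 ± 1.91 CPM in deprived heads, against 45.0 ± 2.34 CPM in replete heads, Ilp5, an insulin-like peptide, at 14.8 ± 0.731 and 11.2 ± 2.08 CPM, InR, the insulin receptor, at 177 ± 23.2 and 154 ± 6.18 CPM, and dpp at 34.5 ± 1.86 and 44.0 ± 13.1 CPM (SD, n = 3 each). None of these 4 was called in any of 16 alternatives.

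Of 21 ecdysone genes 17 could be tested and 0 passed, where 0.330% of all genes did, with a median log2 fold change of 0.10. Of the 17, 1 (ImpE1) was higher at an unadjusted p under 0.05, beside 2.72% of all genes. Cyp18a1, which inactivates ecdysone, was at 42.0 ± 2.24 CPM in deprived heads, against 37.4 ± 3.97 CPM in replete heads (SD, n = 3 each). The smallest p values belonged to ImpE1 at 5.94 ± 0.222 CPM in deprived heads, against 3.79 ± 0.996 CPM in replete heads, spok at 0.712 ± 0.0625 and 0.319 ± 0.0653 CPM, and the nuclear receptor gene Hr38 at 524 ± 304 and 241 ± 78.5 CPM, none of which passed over all genes. Of 12 xenobiotic response genes 9 could be tested and 0 passed, where 0.330% of all genes did, with a median of 0.07. Of the 9, 2 (Cyp6a8 and GstD10) were lower at an unadjusted p under 0.05, beside 2.41% of all genes. Cyp6a8 was at 17.7 ± 4.72 CPM in deprived heads, against 25.96 ± 6.82 CPM in replete heads. In that list GstD10 was at 2.07 ± 0.661 in deprived and 3.64 ± 1.02 CPM in replete heads, GstD2 at 4.52 ± 2.76 and 2.39 ± 0.883 CPM, and Gclc at 104 ± 9.09 and 91.8 ± 1.21 CPM (SD, n = 3 each).

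**Figure D4:**
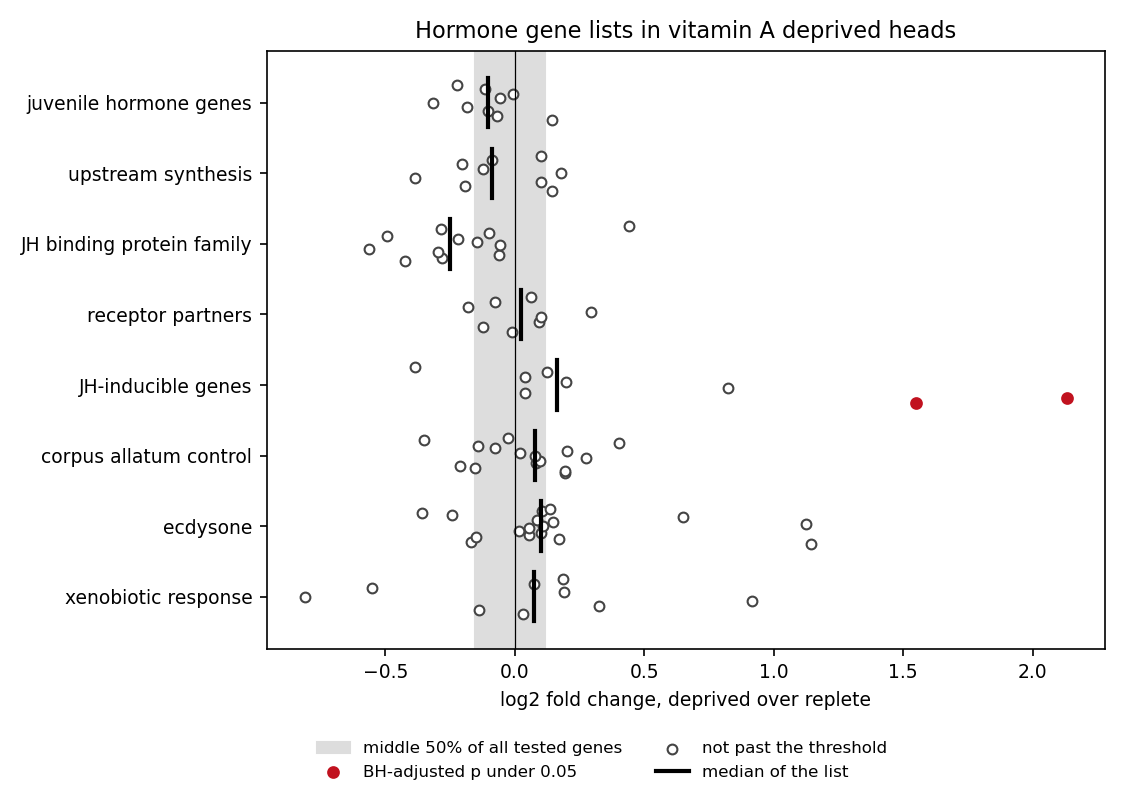
Log2 fold change, deprived over replete (x axis), of the tested genes of each hormone list (rows), with the median of each list as a black line and the middle 50% of all tested genes as a grey band. Red points passed at a BH-adjusted p under 0.05, and the 2 of them, JhI-21 and RNaseZ, are in the list of genes inducible by the hormone.

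Markers of other tissues were read beside these values. Fat body, which makes yolk proteins under hormonal control, was represented by 9 genes, of which 8 were tested. Their summed level was 135254, 115777 and 144321 CPM in the deprived and 116709, 135576 and 135959 CPM in the replete libraries. Lsp2 was called higher in edgeR (1.69-fold, BH-adjusted p = 0.0373), as were 0.294% of all genes, and in 8 of 16 alternatives. Fbp1, apolpp and Yp2 had log2 fold changes of 0.47, 0.13 and -0.09 and did not pass. At an unadjusted p under 0.05, 2 of the 8 (Lsp2 and Fbp1) were higher and 0 lower, beside 2.72% and 2.41% of all genes. For both, every deprived value was above every replete one, as in 5.86% of all genes. Of 10 gut genes only 3 had enough reads to be tested, lab, Mal-A1 and Peritrophin-A, at log2 fold changes of 0.64, -0.43 and 0.14. None of the 3 passed, where 0.330% of all genes did. At an unadjusted p under 0.05, 1 (lab) was higher and 0 lower, and every deprived value of lab was above every replete one. The summed level of the gut genes was 6.71 to 11.8 CPM over the 6 libraries. Of the ovarian genes 6 of 11 were tested, all with a negative log2 fold change, among them Vml, vas, aub and nanos. None of the 6 passed, where 0.330% of all genes did. What these tissues contributed to the juvenile hormone genes was not tested.

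Leaving out replete library 2, the one with oenocyte and eggshell transcripts, left the count of juvenile hormone genes that passed at 0 of 9. Without it the log2 fold change was -0.21 for jhamt, 0.087 for Jheh1, 0.0085 for gce and 0.062 for JhI-26, each opposite in sign to its value with all libraries. Leaving out replete library 3 also left the count at 0 of 9, with log2 fold changes of 0.44 for jhamt, 0.017 for gce and -0.41 for JhI-26, of which that of gce was opposite in sign. Over 16 alternatives for scaling, filtering, testing and leaving out libraries, 144 values of the 9 genes were obtained, of which 131 kept their direction, 13 did not and 0 passed the threshold, with a lowest BH-adjusted p of 0.773.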

How the data were processed

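The deposited files hold raw read counts per FlyBase gene, 1 file for each of 6 libraries, with no normalization. Per the submitters' processing notes, the authors used STAR 2.5.3a, Subread 1.6.2 with featureCounts, FastQC 0.11.5 and Trim Galore 0.4.2, with roles and order not stated. Settings, genome build, annotation, strand and the treatment of reads shared by genes were not given in these sources. Identifiers were matched to the Ensembl annotation of BDGP6.54 (17389 of 17509 matched), and coordinates are from it. Genes were filtered with filterByExpr (minimum count 10, minimum total 15), scaled by TMM and tested in edgeR (4.0.16, under R 4.3.3) by robust quasi-likelihood with diet as the only term and BH adjustment. CPM uses TMM-scaled library sizes. Standard errors are the log2 fold change over the root of F, and 95% intervals use the fit's degrees of freedom. Levels per kb use merged exons. Alternatives were other scalings and filters, no robust estimation, thinning to the smallest library, removal of ribosomal and mitochondrial genes, the replicate block, each library left out, DESeq2 1.42.0 and limma-voom (limma 3.58.1). The fit was tested on simulated data. The genes and lists were chosen with earlier results of these data known. Named genes are all 9 members, the called genes and up to 4 of smallest p of each list, all receptor partners and inducible genes, and 2 most correlated genes per member (mean of at least 1 CPM). CG17330 is a synonym of jhamt and nvd had no match, so both were left out of their lists. Replicate pairs differed by more than counting noise (chi-square per degree of freedom 18.1 to 43.4). No sequences were used here. A result that the naming rule would include is not reported here.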

Additional observations from a re-analysis of the deposited data

How the results depend on the processing

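None of the 9 juvenile hormone genes was called under any of the 16 alternatives. Scaling moved the median log2 fold change of all genes by at most 0.018. Over all genes, DESeq2 called 56 higher and 23 lower and no filter called 10 lower, beside 32 and 4; without 1 library the counts were 18 to 32 higher and 2 to 7 lower. Of the hormone lists DESeq2 called 4 genes, beside 2. Without 1 library the log2 fold change ran from -0.22 to 0.44 for jhamt, -0.20 to 0.087 for Jheh1, -0.69 to 0.056 for Jhe, -0.079 to 0.047 for gce and -0.41 to 0.062 for JhI-26. The other members kept their sign, with -0.18 to -0.022 for Jheh2, -0.37 to -0.065 for Jheh3, -0.10 to -0.018 for Met and -0.23 to -0.0047 for Kr-h1. Thinned to the smallest library, jhamt was at -0.0081 and gce at 0.0041, and with library size alone gce was at 0.014 and tai at 0.0093. Limma-voom gave 0.70 for vas and 1.30 for nanos. Without 1 library the ranges were -0.068 to 0.089 for tai, -0.50 to 0.055 for Hsp83, -0.53 to 0.054 for Fkbp39, -0.030 to 0.12 for ftz-f1, -0.059 to 0.091 for mnd, -0.012 to 0.081 for Eip75B, -0.37 to 0.53 for Jhedup, -1.53 to 0.53 for aub, -0.85 to 0.025 for Mal-A1 and -0.18 to 0.88 for Peritrophin-A. The cause of these turns was not tested. Libraries with the same replicate number did not pair (correlations of deviations of -0.06, 0.02 and 0.18); with the replicate block 24 genes were called higher and 6 lower, 0 of the 9 among them, and AOX1 passed. Counts were lower for jhamt, Jhe and JhI-26, at 10 to 131 a library, than for the other members. Their log2 intervals were the widest of the members, and the part of depth in this was not tested. Counting error alone gives a coefficient of variation of 11.6% for Jhe, below the 53.0% and 27.7% seen among deprived and replete libraries.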
